A study of Mus musculus with 15 samples.

Results

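The immediate early genes Fos, Fosb, Junb, Egr1, Egr2, Npas4, Nr4a1, Arc, Dusp1 and Ier2 were measured in the cerebellum of wild-type mice and of mice that model Friedreich ataxia. They are 10 of the 55487 mouse genes in the table, chosen as a set by name, and each was matched by symbol to 1 Ensembl identifier. Immediate early genes are transcribed within minutes of synaptic activity, growth factors or stress, from promoters already occupied by factors such as CREB and SRF, and they need no new protein synthesis. Most of their products are transcription factors that in turn drive delayed genes, while Arc acts at synapses and Dusp1 switches off the kinases that started the response. In brain they serve as markers of recent neuronal activity, and they also respond to handling and to the interval between death and freezing, which the labels do not give.

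YG8JR mice lack the mouse gene that is lost in Friedreich ataxia and carry a human transgene with an expanded repeat in its place. The group called mPPL-001 (n = 5) had received Sca1+ hematopoietic stem and progenitor cells (HSPCs) of YG8JR donors, electroporated with Cas9 and the guides UP4 and DN4, which target the human transgene. The mock group (n = 4) had received YG8JR HSPCs electroporated with the same guides and no Cas9, and both groups of recipients were YG8JR mice irradiated with 7 Gy at 2.5 to 3 months of age and kept on antibiotic water for 1 month. A further group of YG8JR mice (n = 3) is labelled untreated, the labels name no treatment for the wild-type mice (WT, n = 3), and all groups carry the same time label, 6 months after transplant. Donors were 8 to 12 weeks old. The stated aim was to examine whether mPPL-001 protects neurons. The labels give neither the strain of the WT mice nor the sex of any animal. Because every YG8JR group lacks the same gene, an effect of the genotype can be read only against WT.

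Library totals ran from 16847839 to 38760039 counts, and the lowest was that of WT replicate 2. The labels assign each library to batch A (8 libraries) or batch B (7 libraries), with both batches in every group. By markers of the cerebellar cortex, the cerebellar label held clearly only in batch B. Gabra6, a receptor subunit of cerebellar granule neurons, stood at 210 to 494 CPM (counts scaled to a common library total) in batch B and at 0.0592 to 72.8 CPM in batch A, and the Purkinje cell gene Pcp2 at 21.2 to 70.7 against 0.195 to 24.7 CPM. Chat, the enzyme that makes acetylcholine in brainstem motor neurons, stood at 0 to 3.94 CPM in batch B and at 6.84 to 34.8 CPM in batch A. The library labelled WT replicate 3, the only WT library of batch A, lay among the YG8JR libraries of its batch on the following measure. Its deviation from the 7 YG8JR libraries of its batch, regressed on the WT difference seen in batch B over 14729 genes, had a slope of 0.13, where 1 would be the full difference, and the YG8JR libraries themselves ran from -0.324 to 0.376. That difference came from batch B, whose tissue markers differ, so the slope cannot tell whether the label is right. The endothelial marker Cldn5 (11.1 CPM) and the microglial marker Cx3cr1 (18.2 CPM) were lowest of batch A in this library. Summed over each marker list this did not hold. The endothelial and mural markers summed to 564 CPM (lowest of batch A 528) and the microglial markers to 247 CPM (lowest 242). By mean log2 CPM, less the mean over the 15 libraries, both lists were lowest of batch A here (-0.13 and -0.1). Its value of the astrocyte marker Gfap (376 CPM) was above the lowest of batch A (319 CPM). Calls against WT among the members and the activity and stress gene lists, and the values of the members named in those comparisons, are therefore given with and without this library.

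Promoters of immediate early genes are known for elements bound by CREB and SRF. RefSeq windows reaching 250 bases before the start (build GRCm38.p6) were matched for 7 members, and Arc, Egr1 and Ier2 are named only. The 6 stretches printed here were chosen because each holds TGACG, the core of the element bound by CREB, or its reverse complement CGTCA. Capitals mark these letters, and every stretch is written 5′ to 3′ on the strand of its gene. The Fos stretch lies at chr12:85473800-85473859 (plus strand), that of Junb at chr8:84978819-84978878 (minus) and that of Fosb at chr7:19310076-19310135 (minus). The stretch of Dusp1 lies at chr17:26508583-26508642 (minus), that of Nr4a1 at chr15:101266756-101266815 (plus) and that of Npas4 at chr19:4990112-4990171 (minus).
Fos: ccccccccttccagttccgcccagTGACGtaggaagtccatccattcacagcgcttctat
Junb: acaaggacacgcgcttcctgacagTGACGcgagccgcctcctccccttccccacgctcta
Fosb: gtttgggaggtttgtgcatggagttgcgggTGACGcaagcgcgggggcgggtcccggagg
Dusp1: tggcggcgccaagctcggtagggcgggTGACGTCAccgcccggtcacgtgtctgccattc
Nr4a1: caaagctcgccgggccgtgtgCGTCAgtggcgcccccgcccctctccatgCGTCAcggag
Npas4: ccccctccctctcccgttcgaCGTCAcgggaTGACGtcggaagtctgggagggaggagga

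TGACG on either strand stood within 250 bases before the start in 7 of 7 members with a window, against 19.8% of the 27025 genes in the promoter table. For Egr2 this was so in 3 of its 5 annotated windows, and Fos, Nr4a1, Dusp1, Npas4 and these windows of Egr2 held more than 1 copy. The full palindrome TGACGTCA, which contains TGACG on both strands, was present in Dusp1 alone among these members and in 1.77% of genes. Further letters on either strand were TATAAA in Fos (14.3% of genes), the CArG box, the element bound by SRF, in Egr2 (1.62% of genes) and GCGGGGGCG, the element bound by Egr proteins, in Fosb and Nr4a1 (2.93% of genes). A match of letters is a description of the promoter and not a measured site of binding.

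Per kilobase of annotated exon, the highest levels over the 15 libraries were those of Dusp1, Arc and Egr1, with medians of 7.26, 6.94 and 6.71 CPM per kilobase. Fos (5.33), Ier2 (4.17), Junb (3.92) and Nr4a1 (3.47) followed, and Npas4 (0.582), Fosb (0.416) and Egr2 (0.193) were lowest on this scale. The ranges of neighbours in this order overlapped at every step but that from Nr4a1 (2.29 to 10.4 CPM per kilobase) to Npas4 (0.299 to 1.01). The lowest raw counts in any library were 12 for Egr2, 15 for Fosb and 42 for Npas4, so these are measured least exactly. All 10 genes passed the filter on low counts in the fit of 24989 genes. The values below are CPM with library sizes scaled by TMM, and they compare libraries, not genes.

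Fos, Fosb and Junb encode subunits of the transcription factor AP-1. Fos stood at 10.9, 19.4, 6.69, 23.4 and 9.37 CPM in mPPL-001 replicates 1 to 5, at 7.84, 25.7, 19.1 and 14.9 CPM in mock replicates 1 to 4, at 9.16, 16.8 and 12.5 CPM in untreated YG8JR and at 5.41, 5.49 and 14.3 CPM in WT. The 2 lowest values were those of WT replicates 1 and 2, the highest was that of mock replicate 2, and all groups overlapped. Junb stood at 7.60, 12.1, 9.02, 14.0 and 9.49 CPM in mPPL-001, at 6.48, 21.7, 8.25 and 9.61 CPM in mock, at 7.40, 10.2 and 8.77 CPM in untreated YG8JR and at 8.45, 3.88 and 9.60 CPM in WT. Apart from mock replicate 2 and mPPL-001 replicates 2 and 4, all Junb values were at or under 10.2 CPM. Fosb stood at 2.65, 1.96, 3.57, 8.53 and 2.03 CPM in mPPL-001, at 1.17, 7.22, 2.35 and 2.37 CPM in mock, at 2.60, 4.49 and 6.84 CPM in untreated YG8JR and at 1.47, 0.755 and 6.06 CPM in WT. Its 5 highest values were all in batch A.

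Egr1 and Egr2 encode zinc finger transcription factors. Egr1 stood at 17.7, 53.5, 26.9, 60.3 and 30.1 CPM in mPPL-001, at 28.1, 56.8, 30.0 and 30.1 CPM in mock, at 27.2, 30.1 and 37.2 CPM in untreated YG8JR and at 40.1, 18.6 and 21.4 CPM in WT. Its values fell into 3 libraries at 53.5 to 60.3 CPM and 12 libraries at 17.7 to 40.1 CPM. Egr2 was the scarcest member, at 0.37 to 1.15 CPM in all libraries. Its range was 0.716 to 1.15 CPM in untreated YG8JR, above the 0.37 to 0.654 CPM of WT, while mPPL-001 (0.38 to 1.00 CPM) and mock (0.503 to 0.748 CPM) overlapped with both.

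Nr4a1, an orphan nuclear receptor, stood at 11.0, 15.4, 8.05, 23.6 and 11.3 CPM in mPPL-001, at 12.6, 36.7, 12.1 and 12.3 CPM in mock, at 12.2, 9.93 and 11.8 CPM in untreated YG8JR and at 9.62, 15.9 and 12.5 CPM in WT. Only mock replicate 2 and mPPL-001 replicate 4 exceeded 15.9 CPM. Npas4, a transcription factor of neurons that is induced by calcium entry, ranged from 1.24 CPM in mPPL-001 replicate 3 to 4.17 CPM in mPPL-001 replicate 1. The other groups, at 1.92 to 2.68 CPM (mock), 1.85 to 2.64 CPM (untreated YG8JR) and 1.44 to 2.57 CPM (WT), lay within the range of mPPL-001.

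Arc, whose protein acts in the removal of AMPA receptors from synapses, stood at 25.6, 14.7, 19.8, 29.1 and 17.5 CPM in mPPL-001, at 13.9, 25.9, 38.9 and 15.8 CPM in mock, at 17.2, 38.9 and 33.8 CPM in untreated YG8JR and at 21.2, 20.6 and 29.6 CPM in WT. In each group the libraries of batch A were the higher ones. Dusp1, a phosphatase of MAP kinases, stood at 17.8, 44.6, 16.8, 22.4 and 28.6 CPM in mPPL-001, at 29.3, 45.7, 24.3 and 32.5 CPM in mock, at 25.5, 24.0 and 23.8 CPM in untreated YG8JR and at 23.8, 18.5 and 22.2 CPM in WT. All mock libraries lay above all WT libraries, while mPPL-001 spanned both. Ier2, a nuclear protein induced by growth factors, stood at 2.94, 13.1, 3.83, 3.59 and 7.18 CPM in mPPL-001, at 7.03, 7.93, 4.29 and 7.54 CPM in mock, at 7.34, 5.15 and 3.35 CPM in untreated YG8JR and at 7.80, 6.34 and 4.44 CPM in WT. Unlike Arc, Ier2 was mostly higher in libraries of batch B.

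**Figure D1:**
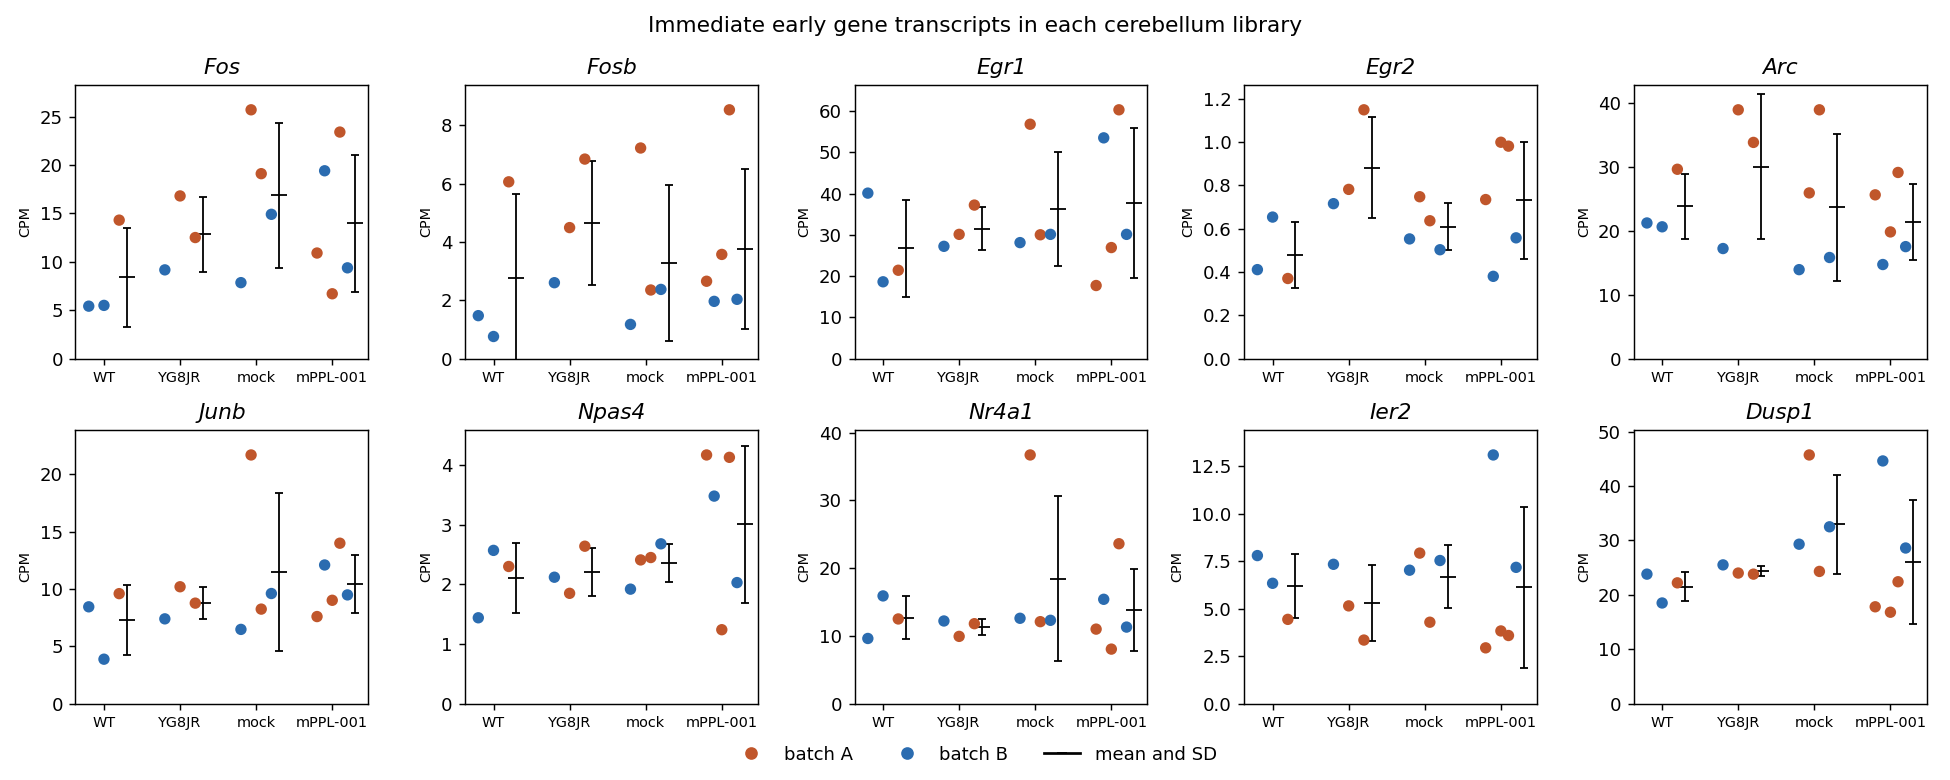
CPM of each of the 10 genes (y axis, from 0) in the 15 libraries by group (x axis), with colour for the batch and a line and bar for the mean and SD of each group, bars being cut off at 0. Egr1 stands at 53.5 to 60.3 CPM in 3 libraries of transplanted mice and at 17.7 to 40.1 CPM in the other 12 libraries.

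Most of the high values were carried by 3 libraries of transplanted mice, which were singled out after the values were seen and are not tested as a group. Among the 15 libraries, mock replicate 2 had the highest Fos, Junb, Nr4a1 and Dusp1, mPPL-001 replicate 4 the highest Fosb and Egr1, and mPPL-001 replicate 2 the highest Ier2. In these 3 libraries Junb stood at 12.1 to 21.7 CPM against 3.88 to 10.2 CPM in the other 12, and Fos at 19.4 to 25.7 against 5.41 to 19.1 CPM. They did not share all members. Arc (14.7 to 29.1 against 13.9 to 38.9 CPM), Npas4 (2.41 to 4.13 against 1.24 to 4.17 CPM) and Egr2 (0.38 to 0.982 against 0.37 to 1.15 CPM) lay within the range of the other libraries. Ier2 and Dusp1 were high in mPPL-001 replicate 2 and low or middling in replicate 4, whereas Fosb was the reverse. Replicate 2 is of batch B and replicate 4 of batch A. Ier2 at 13.1 CPM in replicate 2 was the highest of batch B (median 7.34 CPM). At 3.59 CPM in replicate 4 it lay inside the 2.94 to 7.93 CPM of batch A (median 4.06 CPM). Fosb at 8.53 CPM in replicate 4 was the highest of batch A (median 5.27 CPM). At 1.96 CPM in replicate 2 it was at the median of batch B (0.755 to 2.60 CPM). Relative to the batch medians the contrast thus remained, though both genes also differed between the batches. The 3 libraries came from both transplanted groups and from both batches.

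To describe how the members vary together, log2 CPM was centred on the mean of each batch and set against Egr1, a reference chosen after its values were seen. Junb followed Egr1 most closely (Pearson r = 0.82, permutation p = 0.00018, Spearman rho = 0.81, permutation p = 0.00038, n = 15 libraries, two-sided), with r = 0.81 in batch A and 0.87 in batch B. After adjustment over the 9 relations with Egr1 these p-values were 0.00162 and 0.00342. Without the 2 libraries farthest from the median of Egr1 the coefficient for Junb was 0.76, and without the 3 high libraries it was 0.64. Dusp1 (r = 0.70, adjusted permutation p = 0.0158, rho = 0.60, adjusted 0.0495) and Fosb (r = 0.61, adjusted permutation p = 0.0323, rho = 0.59, adjusted 0.0495) followed with smaller coefficients. For Fos the coefficient of 0.62 (adjusted permutation p = 0.0323, rho = 0.60, adjusted 0.0495) was 0.48 without the 2 farthest libraries and 0.19 without the 3 high ones, so that it rests on those libraries.

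For Nr4a1 (r = 0.57, adjusted permutation p = 0.0377) and Ier2 (r = 0.60, adjusted permutation p = 0.0323) the rank correlation did not pass the threshold, with rho = 0.35 (adjusted permutation p = 0.308) and 0.37 (adjusted permutation p = 0.303). The coefficient of Nr4a1 was 0.11 without the 2 farthest libraries, that of Ier2 0.68. The coefficients of Npas4 (0.14, rho 0.12), Egr2 (0.06, rho -0.06) and Arc (-0.05, rho 0.04) with Egr1 had adjusted permutation p-values of 0.78 to 0.893. Over all 45 pairs of members the coefficient ran from -0.40 to 0.85 with a median of 0.32, and 31 were positive.

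**Figure D2:**
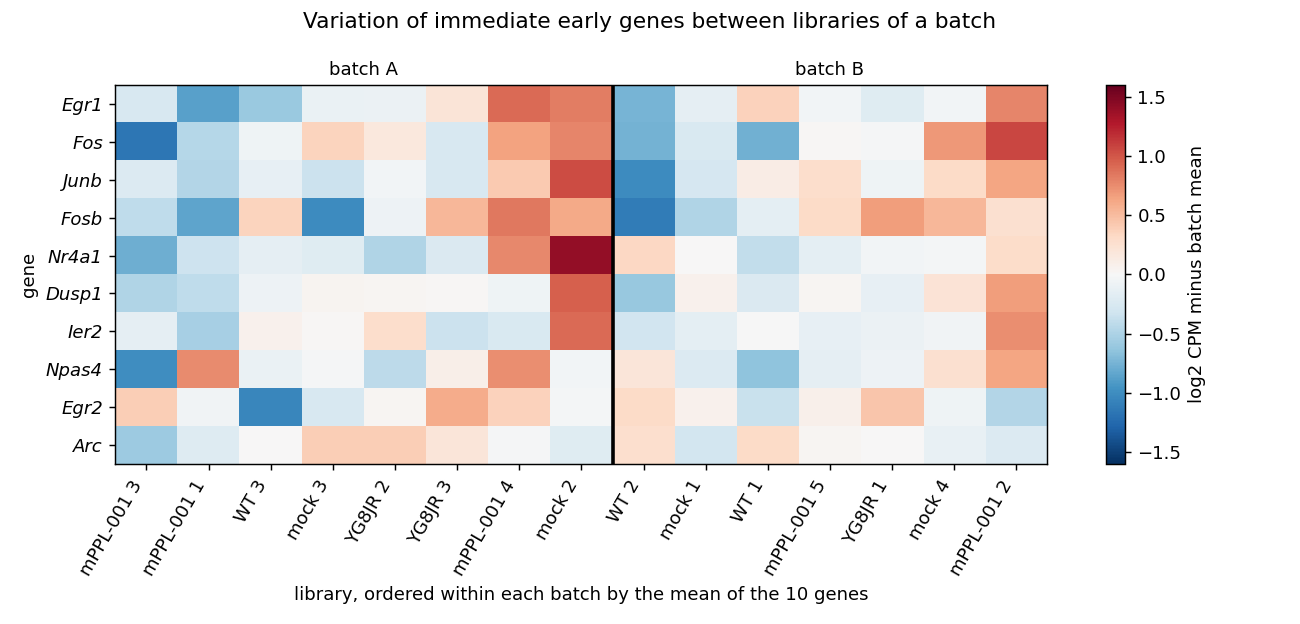
Log2 CPM minus the batch mean (colour) of the 10 genes (rows) in the 15 libraries (columns), split by batch and ordered within a batch by the mean of the 10 genes. Mock replicate 2 is highest for Fos, Junb, Nr4a1 and Dusp1, whereas Arc, Npas4 and Egr2 do not follow the libraries that are high in Egr1.

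Outside the set, the genes most like it were sought by the correlation of batch-centred log2 CPM with the mean of the 10 members over the 15 libraries, among 13921 genes that average at least 1 CPM. Atf3, a stress-induced transcription factor, came first (r = 0.82, 0.80 in batch A and 0.89 in batch B), followed by P2ry2, a receptor for extracellular nucleotides (0.81), and the kinase Dapk2 (0.77). The other 7 of the top 10 were Btg2 (0.75), Frg2f1 (0.75), Btg3 (0.74), Apold1 (0.71), Myd88 (0.70), Unc45b (0.68) and Sik1 (0.68). Atf3, Btg2 and Sik1 are themselves immediate early genes and Apold1 is an early response gene of endothelium. These coefficients describe likeness over libraries that differ in depth and batch, and the coefficient of Atf3 was 0.66 without the 2 libraries farthest from the median of that mean.

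These 10 genes were picked by their likeness to a mean that was itself highest in mock replicate 2 (0.62 on the batch-centred log2 scale). High values in that library are thus partly fixed by the choice. Mock replicate 2 had the highest value of the 15 libraries for 7 of these 10 genes that are no members, among them Btg2 at 30.7 CPM (5.76 to 18.9 CPM elsewhere). Apold1 stood there at 49.5 CPM, with 25.4 CPM in mPPL-001 replicate 4 and 1.11 to 16.9 CPM in the other libraries. Klf2 and Klf4, early response genes of endothelium, stood at 30.9 and 25.4 CPM in mock replicate 2, against at most 13.0 and 13.3 CPM in any other library. They stood at 8.34 and 8.22 CPM in mPPL-001 replicate 2 and at 11.0 and 10.3 CPM in mPPL-001 replicate 4. Both were picked from a list of other immediate early genes after their values were seen. Of that list Zfp36, Csrnp1 and Ptgs2 were also highest in mock replicate 2, while Dusp5, Klf10 and Gadd45g were highest in other libraries. The summed level of 16 endothelial and mural markers was 751 CPM in mock replicate 2, inside the 242 to 869 CPM of the 15 libraries, and the 12 choroid plexus markers summed to 263, 352 and 394 CPM in the 3 high libraries against 212 to 8020 CPM in all. Their part in the result was not tested.

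Batch A and batch B differed in 3 of the 10 members by edgeR's quasi-likelihood test with the groups in the model and Benjamini-Hochberg adjustment over 24989 genes. Among all genes 32.0% were called in this comparison (15.5% higher and 16.5% lower in batch A), so the share of members is near the background. Arc was higher in batch A (30.2 ± 6.71 CPM, SD, n = 8) than in batch B (17.3 CPM, n = 7), with a log2 difference of 0.83 (SE 0.13, adjusted p = 0.000281). Its lowest value in batch A was 19.8 CPM, in mPPL-001 replicate 3, and only WT replicates 1 and 2 of batch B were above that, while within each group the batches did not overlap. Fosb was higher in batch A by 1.52 (SE 0.33, adjusted p = 0.00276), with values of 2.35 to 8.53 CPM against 0.755 to 2.60 CPM. Ier2 was lower in batch A by a log2 difference of -0.88 (SE 0.22, adjusted p = 0.00748), with values of 2.94 to 7.93 against 6.34 to 13.1 CPM, and mock replicate 2 was the only library of batch A above 5.15 CPM. The other 7 members did not pass, and among them Fos had the smallest p (log2 difference 0.64, SE 0.29, adjusted p = 0.106).

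By marker genes the tissue sampled moved with the batch, though batch A was not uniform. A region score, the mean log2 CPM of granule and Purkinje markers minus that of brainstem markers, was -1.61 to 4.20 in batch A and 6.51 to 9.11 in batch B, with no overlap. The value of 4.20 was that of mPPL-001 replicate 3, and the next highest of batch A was 1.38. In that library the Purkinje markers summed to 7660 CPM, above the 5970 CPM of WT replicate 2 in batch B. Slc6a5, of the brainstem and deep nuclei list, stood there at 43.7 CPM, inside the 24.8 to 93.0 CPM of batch B. In mPPL-001 replicate 4 it stood at 78.2 CPM, also inside that range, with Gabra6 at 0.575 and Pcp2 at 1.22 CPM. The whole list summed to 648 CPM in replicate 3 and 699 CPM in replicate 4, above the 394 CPM that was highest in batch B. Of the marker lists, 13 of 15 granule neuron, 14 of 14 Purkinje cell and 7 of 12 astrocyte genes were called lower in batch A. Higher were 15 of 15 brainstem and deep nuclei and 11 of 12 oligodendrocyte genes. Of the 12 astrocyte genes 2 were higher, as were 5 of 12 microglial, 4 of 16 endothelial and mural and 1 of 8 molecular layer interneuron genes, of which 3 were lower. None of 12 choroid plexus genes was called and 2 of 10 meningeal fibroblast genes were lower. With the region score as a covariate the edgeR test called 0 members and 0 genes (0 members and 417 genes at an unadjusted p under 0.05), and the log2 difference of Arc was 0.31, that of Fosb 0.54 and that of Ier2 -0.96. Batch and region cannot be told apart here, nor can fewer cells of a type and less RNA per cell in any of these bulk samples.

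**Figure D3:**
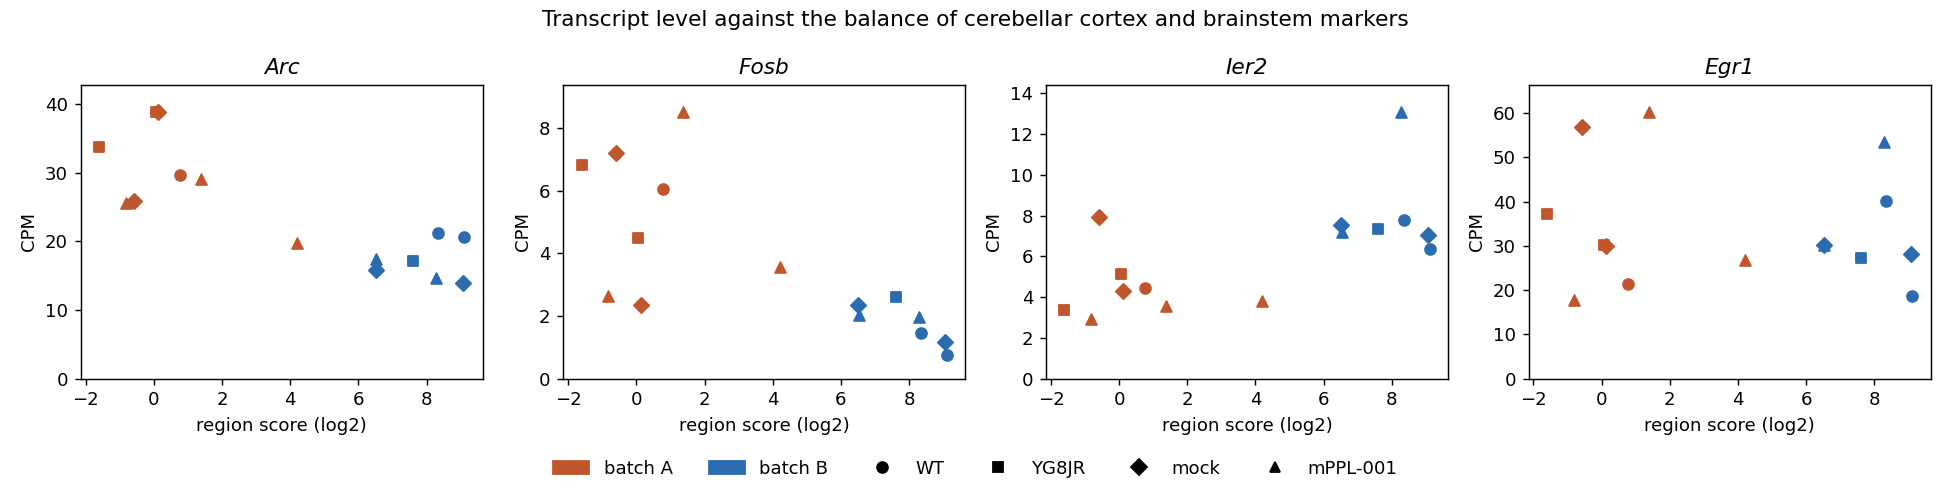
CPM of Arc, Fosb, Ier2 and Egr1 (y axes, from 0) against the region score (x axis, log2 units, higher with more granule and Purkinje transcripts), 1 point per library with colour for batch and shape for group. Batch A lies at -1.61 to 4.20 and batch B at 6.51 to 9.11, and Arc is 19.8 to 38.9 CPM in the former and 13.9 to 21.2 CPM in the latter.

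The 6 comparisons between groups came from the same model with a batch term, and those with a common group share its libraries, so their values are given side by side and are not independent. No member passed the threshold in any of them. The labels do not state that each library came from its own animal, so the p-values speak only of the spread among these libraries.

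Untreated YG8JR against WT asks what the model changes. EdgeR called 0 of 10 members, with 0.172% of all genes called, and 0 members had an unadjusted p under 0.05, against 26.4% of all genes. DESeq2 called 0 members. The smallest p belonged to Egr2 (0.884 ± 0.237 against 0.478 ± 0.154 CPM, SD, n = 3 each), with a fold change of 0.72 on the log2 scale (SE 0.43, 95% interval -0.21 to 1.65, edgeR adjusted p = 0.28). It was the 1 member whose groups did not overlap, as was so for 18.5% of all genes, and its counts were the lowest of the set. Fosb came next at 0.55 (SE 0.51, interval -0.54 to 1.63, adjusted p = 0.476). The 10 fold changes ran from -0.24 (Nr4a1) to 0.72 with a median of 0.18, and the median of all genes was 0.00. Without the library labelled WT replicate 3 the fold change of Egr2 was 0.30 (adjusted p = 0.666), that of Fosb 1.06 (adjusted p = 0.225) and that of Fos 0.88 in place of 0.47, with 0 members called. Without YG8JR replicate 1 the value of Fosb was 0.32, and without WT replicate 2 the values were 0.26 for Fosb and 1.06 for Egr2.

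The effect of an edited transplant was examined in mPPL-001 against untreated YG8JR. Again edgeR called 0 of 10 members (0.032% of all genes called) and DESeq2 0, and 1 member had an unadjusted p under 0.05 (3.7% of all genes). That member was Arc, at 21.3 ± 5.92 CPM (SD, n = 5) against 30.0 ± 11.3 CPM (n = 3), with a fold change of -0.39 on the log2 scale (SE 0.18, interval -0.77 to -0.01, edgeR adjusted p = 0.94). Npas4 followed, at 3.01 ± 1.31 against 2.20 ± 0.398 CPM and a fold change of 0.46 on the log2 scale (SE 0.37, adjusted p = 0.94). The members ran from -0.39 to 0.46 with a median of 0.14 (-0.11 without mPPL-001 replicate 2), beside 0.02 for all genes, and no member had groups that did not overlap (2.08% of all genes).

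Mock against untreated YG8JR compares irradiated recipients of unedited cells with mice left alone. Here too edgeR called 0 of 10 members (0.036% of all genes) and DESeq2 0, and 0 had an unadjusted p under 0.05 (1.47% of all genes). Nr4a1 (18.4 ± 12.2 CPM, SD, n = 4, against 11.3 ± 1.21 CPM, n = 3) had a fold change of 0.70 on the log2 scale (SE 0.40, interval -0.16 to 1.56) and Dusp1 (33.0 ± 9.14 against 24.4 ± 0.935 CPM) one of 0.40 (SE 0.28, interval -0.19 to 0.99), both with an edgeR adjusted p of 1.0. These values leaned on mock replicate 2, without which they were 0.12 and 0.07 and the median of the 10 members was -0.07 in place of 0.24. All members had overlapping groups (2.36% of all genes did not).

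The comparison of mPPL-001 with mock sets edited against unedited cells, with irradiation and transplant in both groups. No gene at all was called by edgeR (0% of 24989 genes; 1.94% had an unadjusted p under 0.05), 0 of 10 members had an unadjusted p under 0.05, and DESeq2 called 0 members. The smallest p-values were those of Dusp1 (26.0 ± 11.4 against 33.0 ± 9.14 CPM, log2 fold change -0.37, SE 0.24, interval -0.88 to 0.15) and Nr4a1 (13.9 ± 6.04 against 18.4 ± 12.2 CPM, log2 fold change -0.39, SE 0.35, interval -1.14 to 0.35), both with an edgeR adjusted p of 1.0. As before, all members had overlapping groups (0.696% of all genes did not). The 95% interval of Arc was -0.51 to 0.19, and over the 10 members the intervals reached from -1.14 to 1.05. Without mock replicate 2 the fold change of Dusp1 was -0.07, that of Nr4a1 0.18 and the median of the members 0.20 in place of -0.14, while without mPPL-001 replicate 2 Dusp1 was at -0.61, without mPPL-001 replicate 4 Nr4a1 was at -0.66 and without mPPL-001 replicate 3 it was at -0.23.

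Against WT, both transplanted groups had higher means of Fos, as did untreated YG8JR (12.8 ± 3.81 against 8.40 ± 5.12 CPM). In mPPL-001, 0 of 10 members were called by edgeR (0.208% of all genes) and 0 by DESeq2, and 1 had an unadjusted p under 0.05 by either tool (16.2% of all genes by edgeR). That was Arc, with a fold change of -0.40 on the log2 scale (SE 0.18, interval -0.78 to -0.01, adjusted p = 0.299), though its batch-unadjusted means of 21.3 and 23.8 CPM differed little. No member had groups that did not overlap (4.57% of all genes). Fos stood at 13.9 ± 7.10 against 8.40 ± 5.12 CPM, a fold change of 0.71 on the log2 scale (SE 0.41, interval -0.16 to 1.58, adjusted p = 0.377). In mock, 0 of 10 members were called by edgeR (0.44% of all genes) and 0 by DESeq2, and 2 had an unadjusted p under 0.05, against 26.5% of all genes. Dusp1 (33.0 ± 9.14 against 21.5 ± 2.71 CPM) differed by 0.67 on the log2 scale (SE 0.28, interval 0.07 to 1.26, edgeR adjusted p = 0.157), and was the 1 member without overlap between the groups (12.0% of all genes). Fos (16.9 ± 7.50 CPM) had one of 0.94 (SE 0.43, interval 0.03 to 1.85, adjusted p = 0.18). Without mock replicate 2, 0 members had an unadjusted p under 0.05, Dusp1 was at 0.39, and the median of the members was 0.15 in place of 0.37. Fos in mPPL-001 was at 0.33 without mPPL-001 replicate 2.

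Without the library labelled WT replicate 3, in which Fos stood at 14.3 CPM against 5.41 and 5.49 CPM in WT replicates 1 and 2, the Fos fold changes were 1.14 (edgeR adjusted p = 0.157) for mPPL-001 and 1.36 (adjusted p = 0.0827) for mock. Without it Arc in mPPL-001 was at -0.52 (edgeR adjusted p = 0.116) and Dusp1 in mock at 0.85 (adjusted p = 0.092). That of Fos in mock was the smallest adjusted p of any member in the 6 comparisons under all 25 alternatives, in which 0 members were called. Within batch A, where that library is the only WT library, Fos differed from WT by -0.08 in mPPL-001 and 0.65 in mock. Within batch B, with WT replicates 1 and 2, the values were 1.42 and 1.08, and edgeR adjusted p-values within either batch were 0.136 or higher.

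**Figure D4:**
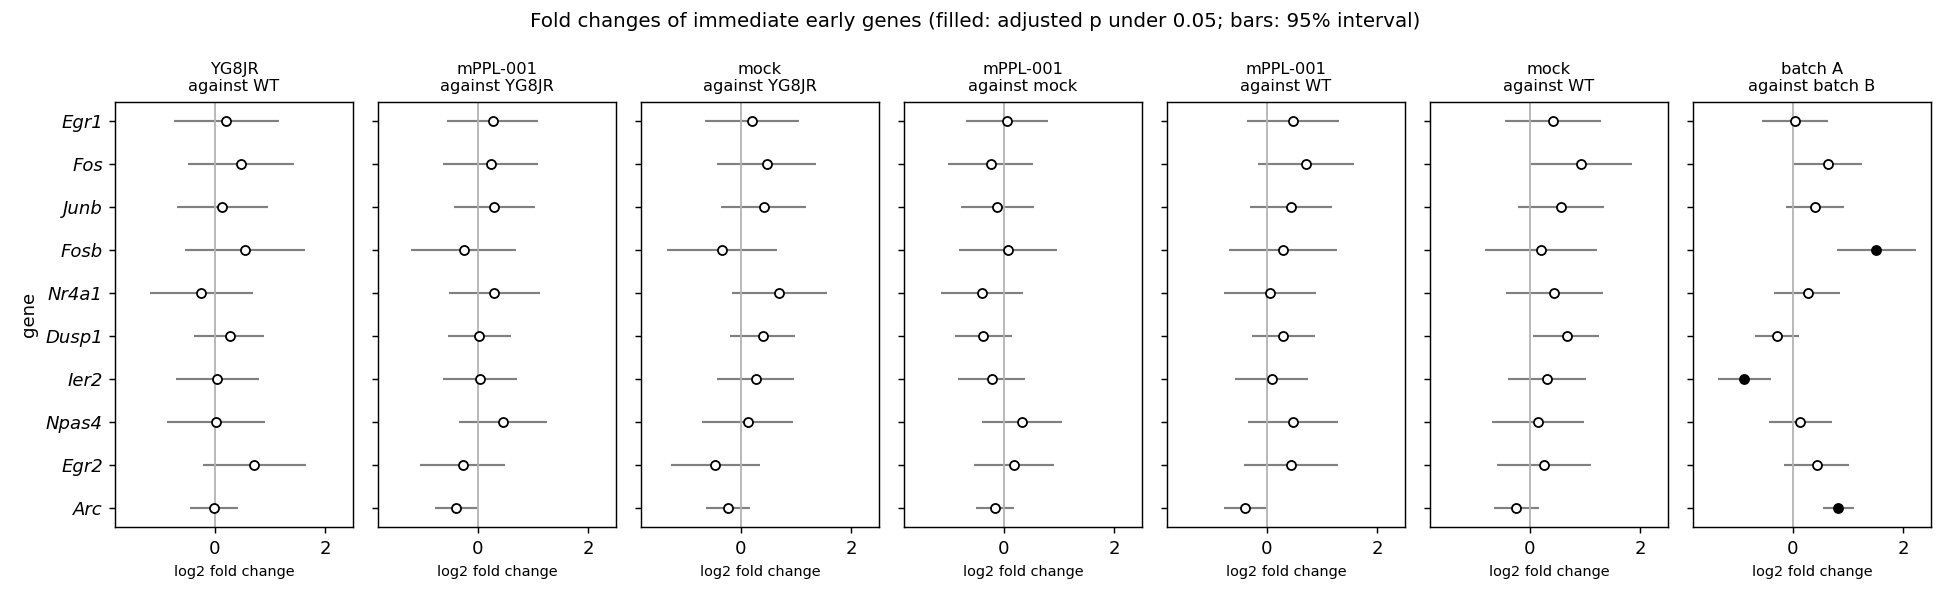
Log2 fold changes (x axis) of the 10 genes (y axis) with 95% intervals in the 6 comparisons between groups and in batch A against batch B, filled where the adjusted p was under 0.05. No point is filled in the group comparisons, and Arc, Fosb and Ier2 are filled between the batches.

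Around the set, 43 other immediate early genes, 12 delayed activity genes and 20 genes of upstream signalling (kinases, CREB and SRF cofactors) were counted. In untreated YG8JR against WT 1 of 42 tested other immediate early genes was called by edgeR, and it was Dusp6, a phosphatase specific for ERK. Dusp6 stood at 30.5, 37.6 and 32.6 CPM in untreated YG8JR, at 33.0, 33.2, 23.7 and 31.1 CPM in mock, at 21.5, 31.2, 24.2, 23.0 and 27.4 CPM in mPPL-001 and at 17.7, 14.9 and 17.2 CPM in WT. All 12 YG8JR libraries lay above all 3 WT libraries, the one labelled WT replicate 3 included. Klf4 (at least 8.22 against at most 6.75 CPM) and Ccn1 (at least 2.58 against at most 2.09 CPM) of the same list were separated likewise. The share of all genes separated in this way was not computed. Taken singly, untreated YG8JR, mPPL-001 and mock did not overlap with WT in 18.5%, 4.57% and 12.0% of all genes. Dusp6 was higher than in WT by 1.06 (SE 0.17, adjusted p = 0.025) in untreated YG8JR and by 0.88 (SE 0.16, adjusted p = 0.0215) in mock, and in mPPL-001 the value was 0.64 (adjusted p = 0.117). The first call was lost in 13 and the second in 11 of 25 alternatives, with fold changes of 0.91 to 1.15 and 0.72 to 0.99. The first was lost without any 1 of YG8JR replicates 1, 2 and 3, WT replicate 1, mock replicates 1 and 4 and mPPL-001 replicate 5, and the second without any 1 of mock replicates 1, 2 and 4 and WT replicates 1 and 2. Without the library labelled WT replicate 3 the values were 1.14 (edgeR adjusted p = 0.00728) and 0.98 (adjusted p = 0.00758). All 12 microglial markers had positive fold changes in both comparisons, with 1 called in each, and 3 endothelial and mural markers and 1 meningeal marker were called in mock. Their part in the value of Dusp6 was not tested.

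Between groups the counts of these lists depended on the test and on the library labelled WT replicate 3. Against WT, 50.0%, 51.2% and 49.2% of all genes had positive fold changes in untreated YG8JR, mPPL-001 and mock. Of 42 other immediate early genes this held for 32 (median 0.36), 32 (0.21) and 33 (0.41), with 1, 0 and 1 called by edgeR and 4, 5 and 8 by DESeq2. Without the library labelled WT replicate 3 the calls were 11, 8 and 17, while over all genes they went from 43 to 4095, 52 to 1799 and 110 to 4838. In mPPL-001 against untreated YG8JR, mock against untreated YG8JR and mPPL-001 against mock, edgeR and DESeq2 called 0 of them, and 2, 1 and 1 had an unadjusted p under 0.05 by edgeR. The delayed and upstream lists had 0 calls by edgeR in all 6 group comparisons, with 0 to 2 of 12 and 0 to 5 of 20 genes at an unadjusted p under 0.05. DESeq2 called 1 delayed gene in untreated YG8JR against WT and 1 upstream gene in mock against WT, and 0 in the other comparisons. Without the library labelled WT replicate 3, edgeR called 1, 1 and 1 delayed and 2, 1 and 3 upstream genes in untreated YG8JR, mPPL-001 and mock against WT. Inhba, a delayed gene that encodes activin, came nearest in the first (14.4 ± 4.96 against 5.85 ± 1.91 CPM in untreated YG8JR against WT, log2 fold change 1.16, SE 0.35, edgeR adjusted p = 0.119).

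Between the batches these genes moved in both directions, where 15.5% of all genes were called higher and 16.5% lower in batch A. For other immediate early genes called higher the share was near that background. Of 42 other immediate early genes 6 were called higher and 11 lower in batch A, led by the phosphatase Dusp5 (4.41 ± 2.86 against 50.1 ± 12.8 CPM, log2 difference -3.37, edgeR adjusted p = 9.67e-06), Nfil3 (-1.19), Plk3 (0.96) and Gem (2.71). Of 12 delayed genes 6 were higher and 2 lower, with the secreted neuronal peptide Vgf at 223 ± 53.3 against 41.1 ± 19.5 CPM (log2 difference 2.41, edgeR adjusted p = 4.02e-05) and Nptx2 at 10.1 ± 4.92 against 2.12 ± 1.39 CPM (2.24). Of 20 upstream genes 12 were lower and 0 higher, among them the calcium-dependent kinase Camk4 (36.5 ± 15.9 against 232 ± 72.5 CPM, -2.58) and Elk1, an SRF partner (-1.19).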

How the data were processed

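RNA of flash-frozen cerebellum was ribodepleted, made into stranded libraries and sequenced as paired ends, per the labels' protocols. The values the authors deposited are raw read counts per gene. STAR and the build GRCm39 are named per the submitters' processing notes, while the sources used here do not name the counting tool, its strand setting or the annotation. Overlapping and antisense genes may thus share counts. The table has 55487 mouse identifiers, and 1 row without a mouse Ensembl identifier was left out and is not reported here. Symbols came from GENCODE M21 for 55141 identifiers (99.4%), and promoter windows from RefSeq on GRCm38.p6, an earlier build than that of the counts. Exon lengths are the union of exons in GENCODE M21.

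Totals ran from 16847839 to 38760039 counts per library. CPM were computed from the deposited counts with TMM scaling (edgeR 4.0.16, R 4.3.3). Genes with too few counts were removed (minimum count 10, minimum total 15), which left 24989. Quasi-likelihood tests used 1 model of group plus batch over all 15 libraries (common dispersion 0.11), with Benjamini-Hochberg adjustment over all genes tested and a threshold of 0.05. The fits were tested on simulated data. Log2 CPM for correlations used a prior count of 2, and permutation p-values 100000 draws. Pairs of libraries of 1 group differed by at least 23.2 in chi-square per gene, so none was treated as a copy.

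The members and the lists were chosen with earlier results of these data known. The lists held other immediate early, delayed activity, upstream signalling, heat shock and glucocorticoid response genes, and markers of the cell types named in the text. A fold change was printed for members past the threshold or, where fewer than 2 passed, for the 2 with the smallest p. Of other lists, up to 4 called genes with the smallest p, or up to 2 where none passed, could be named. The 10 genes most like the members had to have a proper name and a mean of at least 1 CPM. Dusp6 values by library, Klf2, Klf4, Ccn1, the 3 high libraries and fold changes without a library were chosen after their values were seen. Replicate numbers did not pair the libraries. Alternatives were RLE scaling, DESeq2 1.42.0, no filter or one at higher counts, the model without batch, a replicate block, the region score as a covariate, each batch alone, only the groups compared, and each library left out.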

Additional observations from a re-analysis of the deposited data

Results flagged for a closer look

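In 3 of 20 tests of a gene within a group of 4 or 5 libraries, the most extreme library stood farther from the rest than Dixon's 95% limit allows. Chance alone marks about 1 in 20 where values come from a single normal population. Here each group mixes both batches and the genes share libraries, so 3 of 20 cannot be weighed against that rate. Nr4a1 stood at 36.7 CPM in mock replicate 2, against 12.1 to 12.6 CPM in the other 3 mock libraries, a gap of 0.98 of the whole range (limit 0.829). Egr1 stood at 56.8 CPM in the same library, against 28.1 to 30.1 CPM in the others, a gap of 0.93 of the range. Fosb stood at 8.53 CPM in mPPL-001 replicate 4, against 1.96 to 3.57 CPM in the other 4 libraries of that group, a gap of 0.755 of the range (limit 0.71). Both libraries belong to batch A.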

How the results depend on the processing

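In the 6 group comparisons 0 members were called under each of 25 alternatives, and with each library left out the count was 0 to 0. Between the batches the count of 3 members was 3 to 4 with a library left out and moved to 0 with the region score as a covariate, which could not be separated from batch. Of the named fold changes 4 changed sign under some alternative. Fosb in untreated YG8JR against WT was -0.14 within batch A, and Fos in mPPL-001 against WT was -0.08 there. In mPPL-001 against mock, Dusp1 was 0.25 and Nr4a1 0.11 within batch B, and Nr4a1 ran from -0.66 to 0.18 with a library left out, the latter without mock replicate 2. None of these values was past the threshold, and the cause was not tested. Replicate numbers did not pair the libraries (correlation of deviations -0.408 to 0.363 over 19 same-numbered pairs, 6 of them over 0.1, and 2 of 15 libraries closest to one of their own number). With the replicate block 0 members were called between groups and 3 between batches, and the genes called between batches went from 7987 to 4933. Over all genes the calls ran from 0 to 4095 (43 as reported) for untreated YG8JR against WT, 0 to 21 (8) for mPPL-001 and 5 to 15 (9) for mock against untreated YG8JR, 0 to 5 (0) for mPPL-001 against mock, 11 to 1799 (52) and 5 to 4838 (110) for mPPL-001 and mock against WT, and 0 to 8913 (7987) between batches. By DESeq2 they were 2163, 21, 15, 0, 665, 2522 and 8913 in the same order. Egr2 dropped out under the stricter filter. With 3 to 5 libraries a group and 12 to 39 counts of Egr2 per library, moderate differences of the scarce members were not detectable.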

Other observations

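A pair of further lists covers responses that can accompany the handling of tissue. Of 11 heat shock genes 0 were called by edgeR in the 6 group comparisons, with 0 to 5 at an unadjusted p under 0.05, and DESeq2 called 1 in untreated YG8JR against WT and 0 elsewhere. Without the library labelled WT replicate 3, edgeR called 1, 0 and 2 in untreated YG8JR, mPPL-001 and mock against WT, with 8, 3 and 7 at an unadjusted p under 0.05. Over all genes 4095, 1799 and 4838 were called in that setting. All 11 heat shock genes had positive fold changes against WT in untreated YG8JR (median 0.60), mPPL-001 (0.30) and mock (0.54), as did 50.0%, 51.2% and 49.2% of all genes. Every astrocyte, oligodendrocyte and Purkinje cell marker was positive in these comparisons too, whereas 0, 3 and 0 of 15 granule neuron markers were. The small heat shock protein gene Hspb1 had the smallest p in untreated YG8JR against WT, at 15.7 ± 7.31 against 4.65 ± 2.73 CPM (SD, n = 3 each), a difference of 1.64 on the log2 scale (SE 0.48, adjusted p = 0.116 by edgeR). The summed heat shock level was 1000.0 CPM in WT replicate 2, the library with the fewest counts, and 2420 to 3860 CPM in the other libraries. Between the batches 2 of 11 heat shock genes were called higher in batch A, as were 15.5% of all genes. Hsph1 and Dnajb1, a chaperone and a cochaperone, were higher in batch A than in batch B by 0.69 and 0.41 (edgeR adjusted p = 0.00655 and 0.0385).

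Of 12 glucocorticoid response genes 0 were called by edgeR or DESeq2 between groups, with 0 to 2 at an unadjusted p under 0.05 by edgeR. By edgeR 2 were lower in batch A, a share near the 16.5% of all genes. Without the library labelled WT replicate 3, edgeR called 7, 5 and 7 of them in untreated YG8JR, mPPL-001 and mock against WT, with 11, 11 and 10 at an unadjusted p under 0.05. Over all genes 4095, 1799 and 4838 were called in that setting, in place of 43, 52 and 110. The genes lower in batch A were the metallothioneins Mt2 (log2 difference -1.74, edgeR adjusted p = 0.00183) and Mt1 (188 ± 73.9 against 400 ± 198 CPM, log2 difference -1.10, adjusted p = 0.0196). In the 3 libraries with high Egr1 the summed glucocorticoid response level was 1710, 640 and 834 CPM and the summed heat shock level 2700, 2700 and 2950 CPM, inside the ranges of the 15 libraries (284 to 1810 and 1000.0 to 3860 CPM).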
